A study of Homo sapiens with 4 samples.

Results

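The ephrins, semaphorins, slits and netrins and their receptors were examined in LNCap, an androgen-responsive human prostate tumor cell line. Genes were taken by symbol: those starting with EFNA, EFNB, EPHA, EPHB, SEMA, PLXN, ROBO, NTN, UNC5 or SLIT followed by a number from 1 to 3, together with NRP1, NRP2, DCC and NEO1. The rule found 178 probe sets of 79 genes among 19583 genes on the array. Of these, 71 code for a ligand, receptor or co-receptor (37 ligands and 34 receptors or co-receptors). The other 8 match the symbol rule but are in none of these classes. They are UNC50, UNC5CL and 6 non-coding transcripts, each of which lies beside a gene of these classes. All 79 are called guidance genes below for short. EPHB2 was not analysed here.

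These families were named for steering growing axons, and most of them also act between epithelial, endothelial and tumor cells. Ephrins are held on the cell surface and bind Eph receptor tyrosine kinases on the neighbouring cell, with signals passing into both cells. Semaphorins bind plexins, with neuropilins as partners for the secreted class, while slits bind robo receptors and netrins bind DCC, neogenin or the UNC5 receptors.

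Affymetrix arrays were run for 4 RNA samples, of which 2 carry the label LNCap ERG and the other 2 LNCap Vector. Cells of the first group had received a lentivirus that carried ERG, an ETS transcription factor, with a red fluorescent protein, and cells of the second a lentivirus for the fluorescent protein without ERG. Both were grown in regular medium and kept overnight after seeding until the RNA was taken. It is not stated if replicate arrays stand for separate cultures, so the spread that enters the p-values is that between arrays and may be technical.

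ERG itself did not read higher in LNCap ERG on these arrays, so the labels could not be borne out with it. On every array its 4 probe sets read between 2.65 and 3.58 on the log2 scale. The log2 fold changes were 0.12 and -0.096 with overlap, and -0.19 and -0.24 without. The arrays thus gave no sign of the introduced ERG, and the reason was not tested. As a floor, 30 genes typical of other organs were taken, whose log2 values had a median of 3.29 and reached 4.38 at the 95th percentile, and all ERG probe sets stayed under this percentile. The list held 2 genes above it, SFTPC and MBP, and MBP read 8.08 to 8.25. With 30 genes, the percentile rests on the few highest of them. Markers of luminal prostate cells were present, with 8 of 8 measured genes above the percentile and a summed intensity of 27923 and 28008 in the LNCap ERG arrays and of 28477 and 29064 in the LNCap Vector arrays. The 6 fibroblast markers summed to 503 and 471 in LNCap ERG and to 393 and 378 in LNCap Vector, and 4 of them, together with all leukocyte and basal epithelial markers measured, were under the percentile. The 5 endothelial markers summed to 113 and 103 in LNCap ERG and to 85.0 and 94.7 in LNCap Vector, with only VWF above the percentile. Of 6 neuron markers, NEFL alone was above it, and they summed to 272 and 293 in LNCap ERG and to 283 and 300.2 in LNCap Vector. The fibroblast sum was mostly COL1A1, with a log2 fold change of 0.38, and the part of the fibroblast and endothelial markers in any result was not tested.

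Ephrin-B2 (EFNB2), a membrane-spanning ligand of EphB receptors and EphA4, was lower by the largest amount among the 79 genes. Its log2 intensity was 7.45 and 7.42 in the 2 LNCap ERG arrays and 8.60 and 8.70 in the 2 LNCap Vector arrays. Both LNCap ERG arrays were below both LNCap Vector arrays, as held for 19.1% of all genes, and the distance between the groups was far larger than that within them. The means were 7.43 ± 0.03 and 8.65 ± 0.07 (SD, n = 2 each), a log2 fold change of -1.21 (SE 0.08), or 2.32-fold lower in LNCap ERG. This missed the threshold of 0.05 with an adjusted p = 0.057 from limma over all genes. The second EFNB2 probe set, which was not used for the gene value, read 4.90 and 4.68 against 5.62 and 6.24, a log2 fold change of -1.14. EFNB2 stood at place 7 from the lowest of 19583 log2 fold changes. Since the RNA was of whole cultures, fewer cells with a transcript and less of it per cell cannot be told apart.

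The call on EFNB2 depended on the fit. With trended and robust moderation it passed with an adjusted p = 6.0e-04 from limma, without genes below the median intensity with 0.0054, and with centring on housekeeping genes with 0.049. Over the other limma settings with all 4 arrays the adjusted p was between 0.055 and 0.50, by the methods' t-test it was 0.47, and in limma with any 1 array left out it was between 0.16 and 0.45.

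Since ERG and other ETS factors bind DNA around the letters GGAA, the promoter sequence is shown for EFNB2 and, beside it, for the ephrin EFNA5 and the ephrin-B2 receptors EPHA3 and EPHB4, whose values are described next and did not pass the adjusted threshold. Each is the 250 bases before the RefSeq start in GRCh38.p14, on the strand of the gene, with GGAA and its reverse complement TTCC in capitals.

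EFNB2, chr13:106535663-106535912, minus strand: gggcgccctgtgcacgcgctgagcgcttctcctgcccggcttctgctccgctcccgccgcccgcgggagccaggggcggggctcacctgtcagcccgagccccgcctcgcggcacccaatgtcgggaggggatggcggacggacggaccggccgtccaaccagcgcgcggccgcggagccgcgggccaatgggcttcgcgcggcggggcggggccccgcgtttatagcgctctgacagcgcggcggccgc

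EFNA5, chr5:107670938-107671187, minus strand: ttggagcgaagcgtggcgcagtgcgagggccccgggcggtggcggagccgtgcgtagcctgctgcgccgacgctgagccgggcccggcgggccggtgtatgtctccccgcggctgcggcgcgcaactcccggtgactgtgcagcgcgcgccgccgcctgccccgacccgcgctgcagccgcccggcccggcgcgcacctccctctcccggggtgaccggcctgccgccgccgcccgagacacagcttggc

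EPHA3, chr3:89107371-89107620, plus strand: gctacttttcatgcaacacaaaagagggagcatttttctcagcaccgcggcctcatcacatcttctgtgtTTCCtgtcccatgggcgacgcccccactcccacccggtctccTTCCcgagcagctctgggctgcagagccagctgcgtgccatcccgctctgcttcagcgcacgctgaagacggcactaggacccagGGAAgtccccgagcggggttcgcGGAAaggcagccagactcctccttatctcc

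EPHB4, chr7:100827524-100827773, minus strand: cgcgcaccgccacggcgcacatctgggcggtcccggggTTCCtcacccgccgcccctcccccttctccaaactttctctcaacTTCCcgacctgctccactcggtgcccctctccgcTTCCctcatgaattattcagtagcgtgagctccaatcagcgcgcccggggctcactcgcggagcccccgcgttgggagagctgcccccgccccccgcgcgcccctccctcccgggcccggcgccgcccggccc

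The windows of EFNB2 and EFNA5 held neither GGAA nor TTCC and had 78.4% and 79.6% of G and C. That of EPHA3 held 2 GGAA and 2 TTCC at 61.2% of G and C, and that of EPHB4 held 3 TTCC at 72.8%. GGAA on either strand was in 57 of the 67 guidance gene promoters in the RefSeq table (85.1%) and in 92.8% of all 27305 promoters. The longer CCGGAA, which contains GGAA, was in 4 of 67 (5.97%) against 14.8% of all. CCGGAAGT, which contains both, was in 1 of 67 (1.49%) against 3.64%. These are descriptions of letters in a short window, and a window without a match says only that the letters are not there. The 4 windows printed are a choice out of the 67. SEMA3C is not shown and EFNB3 has no entry among the promoters. Whether the letters go with a direction of change was not tested.

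**Figure D1:**
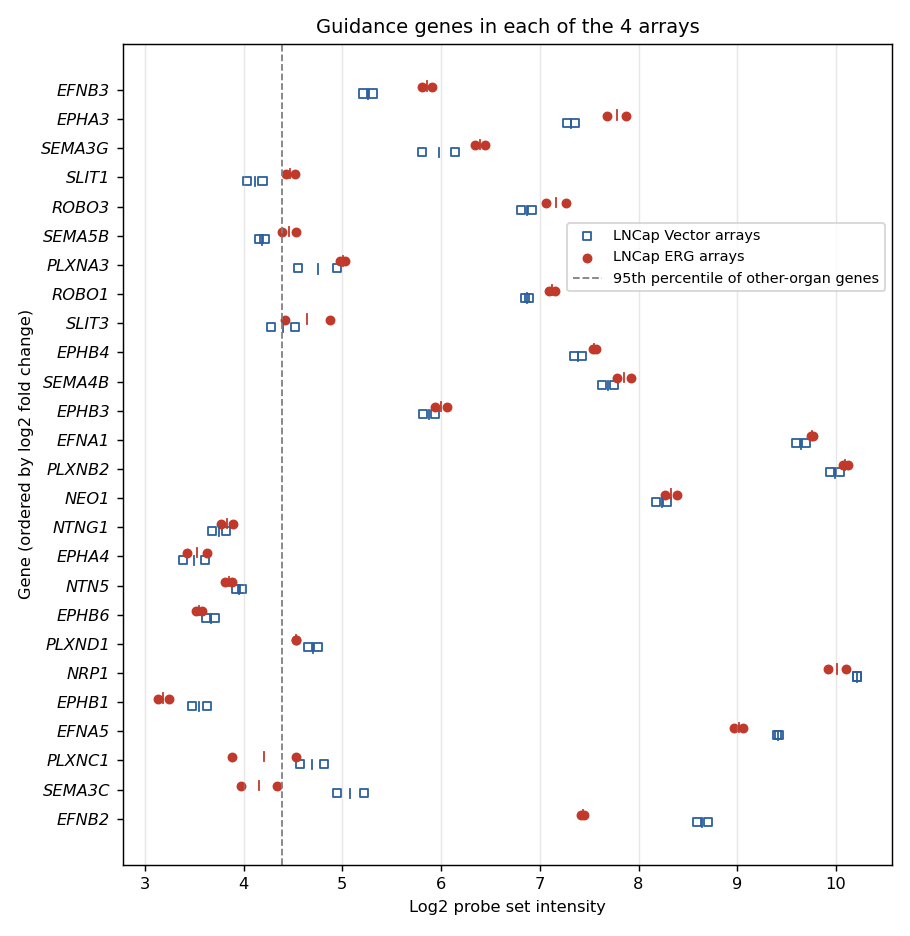
Log2 probe set intensity (x axis) of 26 named genes (y axis, ordered by log2 fold change) in each LNCap ERG array (filled circles) and LNCap Vector array (open squares), with short bars at the group means and a dashed line at the 95th percentile of the other-organ genes (4.38). EFNB2 has both LNCap ERG arrays near 7.4 and both LNCap Vector arrays near 8.6 to 8.7, while most other genes differ by less than 0.5.

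The other ephrins did not share one direction. Ephrin-B3 (EFNB3), a ligand of EphB receptors best known from the nervous system, read 5.90 and 5.81 in LNCap ERG and 5.20 and 5.31 in LNCap Vector. Both LNCap ERG arrays were above both LNCap Vector arrays, as held for 21.7% of all genes, and the log2 fold change of 0.60 (SE 0.09), or 1.51-fold, had an adjusted p = 0.24 from limma. Without genes below the median intensity this became 0.045. The second EFNB3 probe set was under the percentile, with a log2 fold change of 0.04. Averaged over both, EFNB3 had 0.32. Ephrin-B1 (EFNB1) was under the percentile on all arrays, between 3.32 and 3.42.

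Ephrin-A5 (EFNA5), a lipid-anchored ligand of EphA receptors, was lower in LNCap ERG. It read 9.05 and 8.97 in the LNCap ERG arrays against 9.42 and 9.40 in the LNCap Vector arrays, a log2 fold change of -0.40 (SE 0.08), or 1.32-fold, with an adjusted p = 0.32 from limma. With trended and robust moderation this became 0.042. Other EFNA5 probe sets gave -0.35 and -0.31, again with no overlap between the groups, while the last one, close to the percentile, gave 0.10 with overlap, and the mean of all was -0.24. EFNA1, EFNA3 and EFNA4, which lie side by side on chromosome 1, had log2 fold changes of 0.11, 0.12 and -0.03. EFNA2 was under the percentile, at 3.77 and 3.41 against 3.14 and 3.40. At an unadjusted p under 0.05, EFNB3 was higher and EFNA5 and EFNB2 were lower among the 8 ephrins, where 5.61% of all genes were higher and 4.11% lower. None of the 8 passed the adjusted threshold, which 0.0102% of all genes passed.

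The receptors known to bind ephrin-B2 were read beside it, and 3 of the 6 measured were above the percentile. EphB4 (EPHB4), its main partner in blood vessels, read 7.57 and 7.54 in LNCap ERG and 7.35 and 7.42 in LNCap Vector. The groups did not overlap, and the log2 fold change was 0.17 (SE 0.08, adjusted p = 0.56 from limma). The second EPHB4 probe set read 6.10 and 5.89 against 5.76 and 5.78, a log2 fold change of 0.23. EPHB3 gave 0.12 and, at its second probe set, 0.25, with overlapping groups at both. EPHA3 is a receptor of ephrin-A5 above all and binds ephrin-B2 weakly. It read 7.68 and 7.88 in LNCap ERG and 7.27 and 7.35 in LNCap Vector, a log2 fold change of 0.47 (SE 0.10), or 1.38-fold, without overlap and with an adjusted p = 0.33 from limma. The other EPHA3 probe sets were under the percentile, with log2 fold changes of 0.11 and 0.01. The mean over the EPHA3 probe sets was 0.20, and the only plain one, without a shared-sequence suffix, was that of 0.01.

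EPHB1, EPHB6 and EPHA4 were under the percentile on every array. EPHB1 read 3.24 and 3.13 against 3.62 and 3.48, a log2 fold change of -0.37 with an adjusted p = 0.37 from limma. The other EPHB1 probe sets gave -0.05 and 0.05 with overlap, and the mean of all was -0.12. EPHB6 had a log2 fold change of -0.12. EPHA4 had 0.03 with overlapping groups. Of the remaining EphA receptors, EPHA10 and EPHA6 were higher in both LNCap ERG arrays than in both LNCap Vector arrays, with log2 fold changes of 0.22 and 0.23. EPHA1, EPHA2 and EPHA7 had overlapping groups, and EPHA5 and EPHA8 were under the percentile. Of the 13 Eph receptors, 1 was higher (EPHA3) and 1 lower (EPHB1) at an unadjusted p under 0.05, near the 5.61% and 4.11% over all genes.

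**Figure D2:**
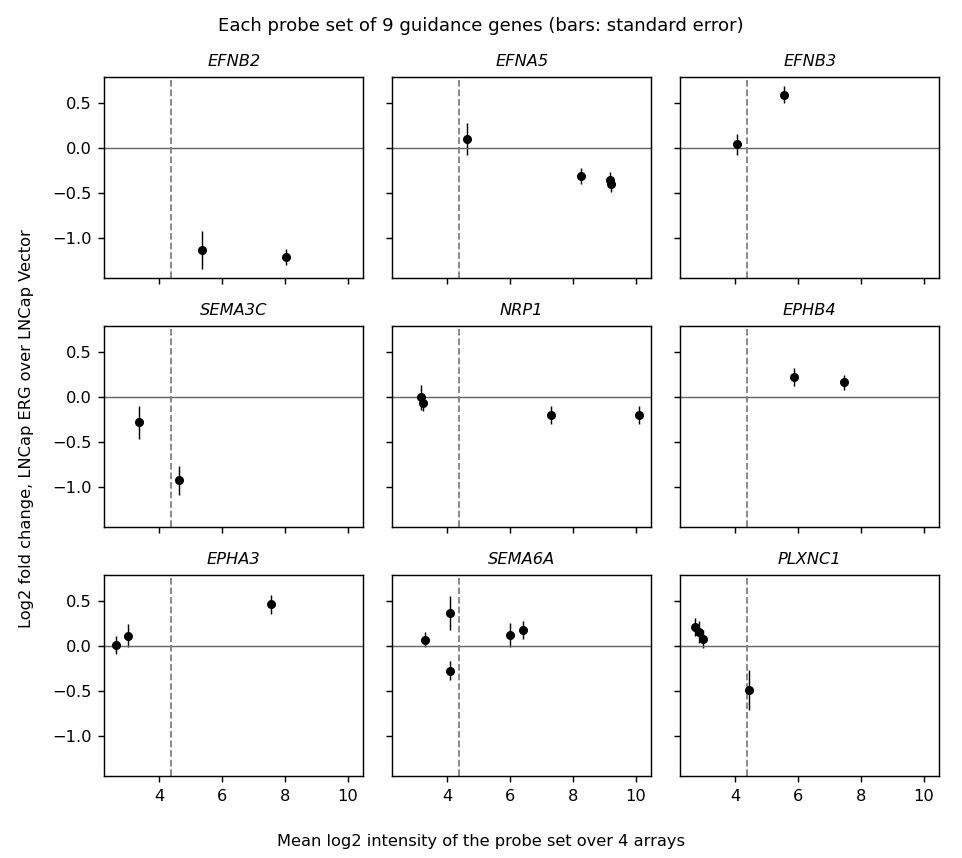
Log2 fold change of LNCap ERG over LNCap Vector (y axis, bars show the standard error from limma) against mean log2 intensity over the 4 arrays (x axis) for every probe set of 9 genes, with the dashed line at 4.38. Both EFNB2 probe sets lie below -1.1 and both EPHB4 probe sets lie above 0. The other probe sets of EPHA3, PLXNC1 and SEMA3C lie left of the dashed line, at intensities under 4.38.

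Among the secreted class 3 semaphorins, SEMA3C was lower in LNCap ERG. SEMA3C, a neuropilin ligand studied for its part in prostate tumor growth, read 3.97 and 4.34 in LNCap ERG and 4.95 and 5.22 in LNCap Vector. The LNCap ERG arrays lay under the percentile and the LNCap Vector arrays above it, with no overlap. The measured log2 fold change was -0.93 (SE 0.16), taken against a group at the background of the array, with an adjusted p = 0.28 from limma. The second SEMA3C probe set was dim and gave -0.28 with overlap, and the mean of both was -0.60. SEMA3G, a semaphorin of the vessel wall, went the other way, at 6.45 and 6.34 against 6.14 and 5.81, a log2 fold change of 0.42 (SE 0.13, adjusted p = 0.44 from limma), and of 0.25 without the second LNCap Vector array. SEMA3B had 0.23 without overlap and SEMA3F -0.12 with overlap. These lie near each other on chromosome 3, with 3 protein-coding genes between. SEMA3A, SEMA3D and SEMA3E, which lie beyond 3 other protein-coding genes from SEMA3C on chromosome 7, were under the percentile with log2 fold changes of -0.15 to 0.06.

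In the membrane semaphorins above the percentile the log2 fold changes stayed between -0.09 and 0.19. SEMA4B, SEMA4D and SEMA6A were higher in both LNCap ERG arrays than in both LNCap Vector arrays, by 0.16, 0.13 and 0.19 on the log2 scale, though SEMA4B had 0.09 without the first LNCap ERG array. SEMA4A, SEMA4C and SEMA4F had overlapping groups. SEMA5B read 4.53 and 4.39 against 4.21 and 4.16, at the level of the percentile, a log2 fold change of 0.27 with an adjusted p = 0.45 from limma. SEMA6D, under the percentile on all arrays, read 3.32 and 3.17 against 3.73 and 4.03, a log2 fold change of -0.64 with an adjusted p = 0.32 from limma. Of 13 membrane semaphorins, 1 was higher (SEMA5B) and 1 lower (SEMA6D) at an unadjusted p under 0.05, again near the 5.61% and 4.11% over all genes.

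Neuropilin-1 (NRP1), the co-receptor of class 3 semaphorins and of VEGF, read 9.92 and 10.10 in LNCap ERG and 10.21 and 10.22 in LNCap Vector. Both LNCap ERG arrays were lower, by a mean of -0.20 (SE 0.09, adjusted p = 0.56 from limma), and the spread between them was nearly as large as that difference. The second NRP1 probe set above the percentile, at 7.30 and 7.12 against 7.45 and 7.36, also gave -0.20, and the mean with 2 dim NRP1 probe sets was -0.12. NRP2 was under the percentile, at 3.48 in both LNCap ERG arrays against 3.90 and 3.67, a log2 fold change of -0.30 with an adjusted p = 0.46 from limma. This was the brightest of 11 NRP2 probe sets. The others, all dim, gave -0.12 to 0.16, and that of 0.16 was higher without overlap.

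Plexins, the signalling receptors of the semaphorins, gave small differences in both directions, and none of the 9 passed even an unadjusted p of 0.05. PLXNB2 read 10.12 and 10.07 against 10.04 and 9.94, a log2 fold change of 0.10, which was -0.04 at its other, dim probe set. PLXNB1 and PLXNA3 were higher by 0.15 and 0.25, and PLXND1 was lower by a log2 fold change of -0.17, each without overlap. PLXNA3 had 0.06 without the first LNCap Vector array, 0.45 without the second and 0.06 when its probe sets were averaged. PLXNC1 had the widest difference, -0.49 (SE 0.23), but its LNCap ERG arrays read 3.88 and 4.53 and its LNCap Vector arrays 4.81 and 4.57. The second LNCap ERG array was thus close to the LNCap Vector arrays, and the other PLXNC1 probe sets, all dim, gave 0.08 to 0.22. Without the first LNCap ERG array the difference was -0.16, and over the mean of the PLXNC1 probe sets it was -0.01.

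Slits and robos are 2 roles and were pooled for the counts here. Of the 7 slits and robos, 6 had a log2 fold change above 0 (3 of 3 slits and 3 of 4 robos), as did 10344 of all 19583 genes. ROBO1, a slit receptor, read 7.16 and 7.09 in LNCap ERG and 6.85 and 6.89 in LNCap Vector, a log2 fold change of 0.25 (SE 0.08, adjusted p = 0.43 from limma). ROBO3, a divergent member of the family, read 7.26 and 7.06 against 6.81 and 6.92, a log2 fold change of 0.29 (SE 0.10, adjusted p = 0.47 from limma), and of 0.19 without the first LNCap ERG array. Neither pair of groups overlapped. ROBO2, the neighbour of ROBO1 on chromosome 3, and ROBO4, the neighbour of ROBO3 on chromosome 11, were under the percentile with log2 fold changes of 0.06 and -0.07. The ligands SLIT1, SLIT2 and SLIT3 had log2 fold changes of 0.36, 0.19 and 0.25, near or under the percentile. The other SLIT1 probe sets, under the percentile, gave -0.01 and -0.05 with overlap. Averaged over each gene's probe sets, SLIT1 had 0.10 and SLIT3 had 0.07. The second SLIT2 probe set, also under the percentile, went the other way with a log2 fold change of -0.23, without overlap. SLIT1 read 4.52 and 4.43 against 4.19 and 4.04, while SLIT3 overlapped between the groups, at 4.87 and 4.42 against 4.28 and 4.52. At an unadjusted p under 0.05, 3 of these 7 genes were higher (SLIT1, ROBO1 and ROBO3) and 0 lower, where 5.61% and 4.11% of all genes were. None passed the adjusted threshold.

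Netrins were near the background of the array. All 4 netrins (NTN1, NTN3, NTN4 and NTN5) and both netrin-G proteins were under the percentile, with log2 fold changes of -0.13 to 0.09. Of their receptors, neogenin (NEO1) alone was above it, at 8.39 and 8.27 against 8.18 and 8.29, a log2 fold change of 0.09 with overlap. DCC read 2.93 and 3.07 against 3.21 and 3.25, a log2 fold change of -0.23. Its other probe sets gave 0.02 with overlap and 0.10 without. UNC5A to UNC5D had log2 fold changes of -0.20 to 0.21, and DCC and these were all under the percentile. The 8 genes that match the symbol rule but are no ligand, receptor or co-receptor had log2 fold changes of -0.30 to 0.07. UNC50, an endoplasmic reticulum to Golgi protein with no known part in guidance, was the one of them above the percentile, with -0.02.

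**Figure D3:**
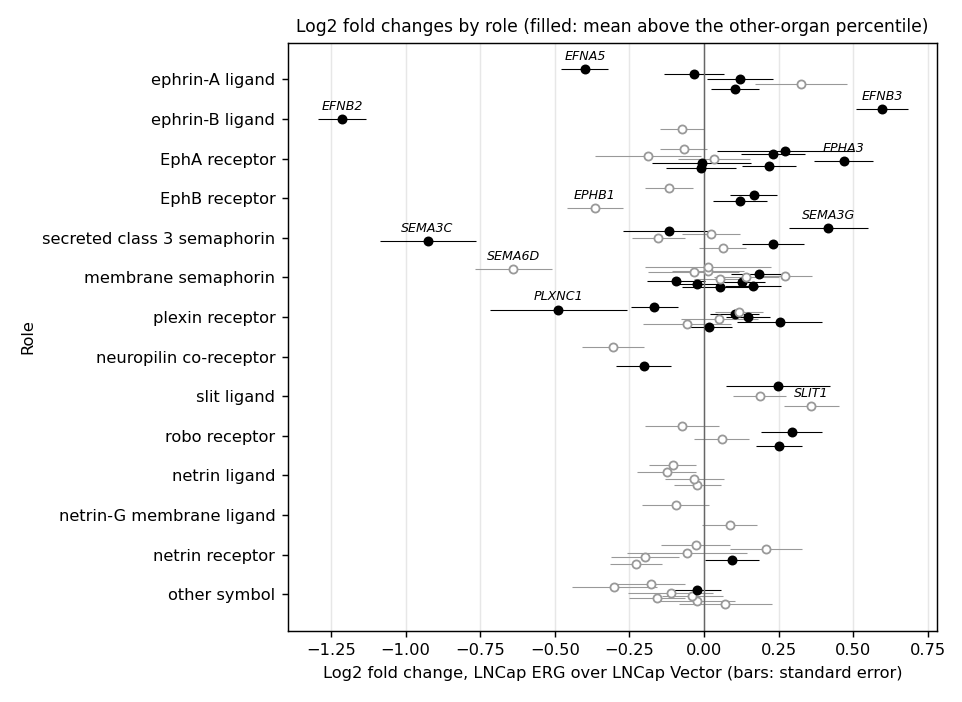
Log2 fold change of LNCap ERG over LNCap Vector (x axis, bars show the standard error from limma) for all 79 genes by role (y axis), filled where the mean over the 4 arrays is above the 95th percentile of the other-organ genes and open where it is not. The robos and slits above the percentile lie between 0.25 and 0.29, while the ephrins reach from -1.21 (EFNB2) to 0.60 (EFNB3).

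Counted over the 79 genes, limma called 0 at an adjusted p under 0.05, where 0.0102% of all genes were called (2 of 19583). Before adjustment, 7 genes (8.86%) had a p under 0.05 and were higher, where 5.61% of all genes were, and 7 (8.86%) were lower, where 4.11% were. Among the lower genes, DCC, EPHB1, NRP2 and SEMA6D were under the percentile in both groups. Among the higher genes, SEMA5B and SLIT1 had a mean over the arrays under it. By the methods' t-test, 5 were higher and 2 lower at that threshold, where 4.38% and 3.76% of all genes were by the same test, and 0 passed after adjustment. Groups without overlap were found for 23 genes (29.1%) in the higher direction, where the share over all genes was 21.7%, and for 19 (24.1%) in the lower direction, where it was 19.1%. The median log2 fold change was 0.01 for the 79 genes and 0.01 for all genes. Whether these shares differ from those over all genes was not tested.

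The 36 guidance genes whose mean was above the percentile, UNC50 among them, were described alone, a choice made after their values were seen. Of these, 23 (63.9%) had a log2 fold change above 0, against 51.0% of the 11160 genes above the percentile. Other lists leaned the same way. The share was 62.7% of the 51 signalling genes and 75.0% of the 12 co-receptors and processing enzymes described below. It was 60.0% of the 20 housekeeping genes, so the lean was not particular to the guidance genes. Groups without overlap were higher for 16 (44.4%), where the share over those genes was 23.8%, and lower for 6 (16.7%), where it was 23.0%. At an unadjusted p under 0.05, 5 were higher (13.9%), where the share was 6.22%, and 3 lower (8.33%), where it was 5.03%. The 5 were EFNB3, EPHA3, ROBO1, ROBO3 and SEMA3G, and the 3 were EFNB2, EFNA5 and SEMA3C. SEMA3C and PLXNC1, both counted as lower without overlap, had a mean above the percentile in LNCap Vector alone, so the selection itself favoured that direction for them. The median log2 fold change over the 36 was 0.11, against 0.0023 over the 11160, and it became 0.05 when probe sets were averaged by gene.

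**Figure D4:**
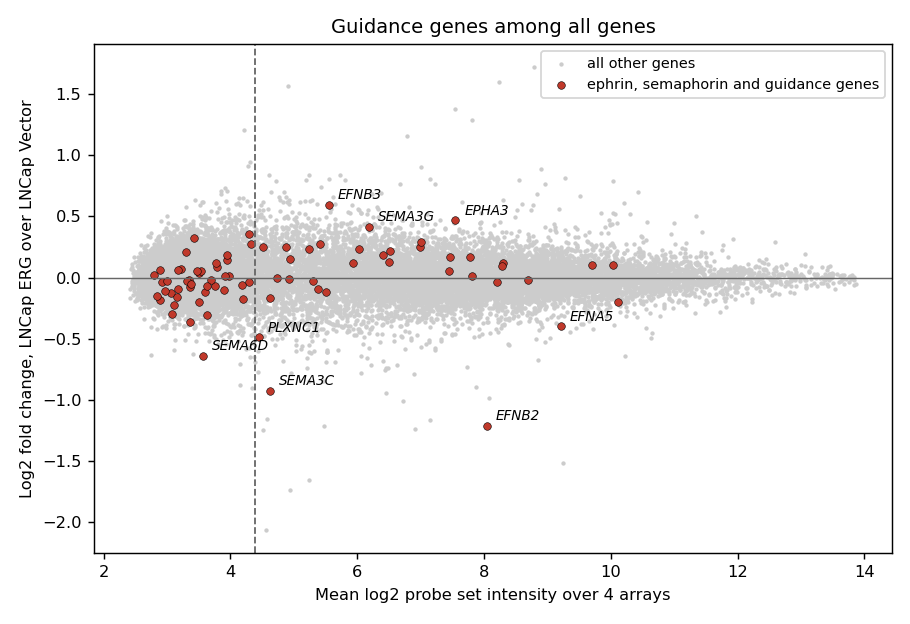
Log2 fold change of LNCap ERG over LNCap Vector (y axis) against mean log2 intensity over the 4 arrays (x axis) for the 79 guidance genes (red) and all other genes (grey), with the dashed line at 4.38. EFNB2 at -1.21 and SEMA3C at -0.93 lie at the lower edge of the cloud, and the other labelled genes lie closer to it.

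Genes that act inside the cell below these receptors were listed from textbook knowledge: adaptors, regulators of the actin skeleton, kinases and collapsin response mediators. Of 65 such genes, 61 were measured and 51 were above the percentile. limma called 0 of them at the adjusted threshold, with an unadjusted p under 0.05 for 3 that were higher (5.61% of all genes) and 3 that were lower (4.11% of all genes), and their median log2 fold change was 0.03, against 0.01 over all genes. TNIK, a kinase that acts on the actin skeleton, read 4.55 and 4.57 in LNCap ERG and 4.93 and 5.11 in LNCap Vector, a log2 fold change of -0.46 (SE 0.09, adjusted p = 0.32 from limma). FYN, a Src family kinase used by ephrin-A and semaphorin signalling, read 4.51 and 4.48 against 4.78 and 4.85, a log2 fold change of -0.32. DPYSL4, a collapsin response mediator, read 6.78 and 6.73 against 6.46 and 6.34, a log2 fold change of 0.36. The adjusted p from limma was 0.37 for both, and the groups did not overlap in any of these.

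Of 32 co-receptors and processing enzymes of the same pathways, 29 were measured and 12 were above the percentile. limma called 0 of these too, with an unadjusted p under 0.05 for 3 that were higher (5.61% of all genes) and 0 that were lower (4.11%), and their median log2 fold change was 0.07. ERBB2, a receptor kinase that can partner plexin-B proteins, read 9.53 and 9.35 in LNCap ERG and 9.16 and 9.14 in LNCap Vector, a log2 fold change of 0.29 (SE 0.09, adjusted p = 0.44 from limma). GPC1, a heparan sulphate proteoglycan that binds slits, had 0.36 (adjusted p = 0.45 from limma). LRRC4, a netrin-G partner, had 0.32 and was under the percentile.

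Over the 4 arrays, the genes with the pattern most like EFNB2 were RIPOR2, CSGALNACT1 and DPP4, by the Euclidean distance between log2 values centred on each gene's mean (0.0888, 0.183 and 0.251). RIPOR2 read 6.61 and 6.52 in LNCap ERG and 7.63 and 7.82 in LNCap Vector. CSGALNACT1, an enzyme of chondroitin sulphate synthesis, and DPP4, a cell surface peptidase, had log2 fold changes of -1.21 and -1.25. The measure rests on 4 values a gene.

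For genes with several probe sets, the direction could be compared between probe designs. Of the 12 guidance genes with more than 1 probe set above the percentile, 7 had the same sign at all of them (EFNB2, EPHB3, EPHB4, NRP1, PLXNA1, SEMA4A and SEMA6A). The share over all genes was not counted, and whether 7 of 12 differs from it was not tested. Under the percentile, SEMA6A also had a probe set of the other sign, at -0.27 without overlap. EFNA5, EPHA7, NEO1, SEMA4D and SEMA4F had both signs, and in each of these the probe set of opposite sign had a log2 fold change of at most 0.11 in size.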

How the data were processed

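Per the labels and the study's methods, biotin-labelled RNA was read on Affymetrix GeneChip Human Genome U133 2.0 arrays, and the authors analysed the scans in dChip, normalized them in RMAexpress and named the probe sets in Multiexperiment Viewer, for which no version or setting is stated. The deposited values are probe set intensities, judged linear from their range (medians of 14.0 to 14.4), and log2 was taken of these deposited values without a pseudocount. Of 51965 probe sets, 39466 name 1 gene in the platform annotation, 838 several and 11661 none, and only the first were used, less 2 with a missing value. The Entrez identifiers of 39415 were in the RefSeq table of GRCh38.p14. Where a gene had several probe sets, that with the highest mean was used.

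All 19583 genes entered 1 fit (limma 3.58.1, R 4.3.3, with lmFit and then eBayes, 2 residual and 3.23 prior degrees of freedom), with Benjamini-Hochberg adjustment over all genes and a threshold of 0.05. The fit was tested on simulated data. The members and gene lists were chosen with earlier results of these data known. Genes were named by rule: any past the threshold, up to 8 highest and 8 lowest without overlap and with a group mean above the 95th percentile of the other-organ genes (only 6 lower genes met this), the gene of each role with the highest mean, ephrin-B2 receptors, the 3 smallest p of each pathway list and the 3 patterns nearest EFNB2. Others were chosen after their values were seen. As alternatives, eBayes was run with trend and robust, dim genes (below the median intensity) were dropped, probe sets of a gene were averaged, kept only where plain (no shared-sequence suffix) or all fitted at once, arrays were quantile normalized again or centred on 20 housekeeping genes, the replicate number entered as a block, the methods' t-test was used, and each array was left out. Arrays have no read depth, and the number of arrays limits the precision: 2 against 2 cannot reach an exact permutation p below 0.333 (two-sided).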

Additional observations from a re-analysis of the deposited data

How the results depend on the processing

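EFNB2 kept its direction in every setting run, with log2 fold changes of -1.23 to -1.18 with 4 arrays and -1.27 to -1.16 with 1 array left out. It passed the threshold with centring on housekeeping genes (-1.23, 1 guidance gene called), trended and robust moderation (-1.21, 2 called with EFNA5) and without genes below the median intensity (-1.21, 2 called with EFNB3). In the other settings 0 guidance genes were called, and 0 signalling genes in any. The number lower at an unadjusted p under 0.05 was 4 with averaged probe sets, 4 with plain probe sets, 2 by the methods' t-test and 3 of 26 tested without dim genes. The number higher was 4 to 10 with 1 array left out, and 4 without the first LNCap ERG or the first LNCap Vector array. The median over the guidance genes was 0.12 without dim genes and -0.024 to 0.055 with 1 array left out. The median of those above the percentile, an outcome chosen after seeing the data, was 0.049 with averaged probe sets and 0.073 to 0.14 with 1 array left out. The sign turned for NTNG1 (-0.052) and EPHA4 (-0.071) with averaged probe sets, for PLXNB2 (-0.036) with plain probe sets, and for EPHA4 with 1 array left out (-0.080 to 0.15). The cause was not tested. With the replicate block, EFNB2 stayed at -1.21 with an adjusted p = 0.50 from limma and 0 guidance genes were called, while the labels tie the numbers to no shared culture or day. The correlation of same-numbered deviations was 0.077 over all genes and 0.13 over those above the median intensity. None of the 25 other named guidance genes passed in the main limma fit. Over the other settings, 303 of their values kept their sign without passing, 5 turned sign and 2 passed. A kept sign does not mean a kept size. EPHA3 went from 0.47 to 0.01 with plain probe sets, and PLXNC1 from -0.49 to -0.01 with averaged ones. SEMA3C could not be read with plain probe sets.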
